A study of Mus musculus with 16 samples.

Results

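The insulin receptor pathway of the liver and the genes driven by its FOXO transcription factors were followed through 10 genes in mouse liver. The genes were taken by their exact symbols: the receptor Insr, the docking proteins Irs1 and Irs2, the kinase subunit Pik3r1, the kinase Akt2, the transcription factors Foxo1 and Foxo3, and Igfbp1, Sesn1 and Sesn3, which FOXO factors are known to induce. All 10 were found once each among 25803 genes, and all 10 passed the filter on low counts. All mice were male and had eaten a high-fat diet (HFD) over 12 weeks, and they were either controls, also called WT by the submitters, or Cpt1a LKO mice, which lack the gene in liver. Necropsy followed a fast of 16 h, or the same fast and then 6 h with food. Each of these 4 groups has 4 libraries. Those of fasted livers are S40 to S43 (control) and S44 to S47 (LKO), and those of refed livers are S48 to S51 (control) and S52 to S55 (LKO). The age of the mice, how the knockout was driven and any allele the controls carry are not given in the sources used here.

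Insulin reaches the hepatocyte through the portal vein after a meal and binds its receptor, which phosphorylates the docking proteins IRS1 and IRS2. These recruit phosphatidylinositol 3-kinase, a dimer whose regulatory subunit is encoded by Pik3r1, and the lipid it makes activates AKT, of which AKT2 is the main form in liver. AKT phosphorylates FOXO1 and FOXO3 and so keeps them out of the nucleus, and in fasting the FOXO factors return and drive genes such as Igfbp1, which encodes a secreted binding protein for insulin-like growth factors, and Irs2. These data hold RNA only: phosphorylation and protein were not measured.

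In fasted livers, Igfbp1 and Irs2 were higher in LKO than in control, by 3.16-fold and 2.85-fold on group means, while Pik3r1 was 1.73-fold lower and Sesn3 rose slightly. Of these 4 differences, called by edgeR at an adjusted p under 0.05, only that of Irs2 held in every alternative fit tried. Over all genes tested in this comparison, 5.75% were called higher and 6.48% lower. For Igfbp1 the LKO library S45 lay below all fasted controls. After refeeding the LKO levels of Igfbp1 and Irs2 were back among those of the controls. None of the 10 genes was called between the refed genotypes, where 2.28% of all genes were called higher and 1.35% lower. For Foxo1 every refed LKO library lay below every refed control, though the gene did not pass. Between refed and fasted LKO livers 5 of the 10 genes were called (Igfbp1, Irs2, Sesn3 and Insr lower, Pik3r1 higher), where 8.78% of all genes were called lower and 9.28% higher. Between refed and fasted control livers 0 were called by edgeR and 1, Irs1, by DESeq2. There edgeR called 7.65% of all genes lower and 7.79% higher. The test of the difference between the genotypes' responses called none of the 10, so the 2 responses are not shown to differ. Over all genes that test called 0.311% with a more positive LKO effect after refeeding and 0.228% with a more negative one. Irs1, Akt2, Foxo1, Foxo3 and Sesn1 were called by edgeR in no comparison.

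Facts of the whole series bear on these values. Libraries held 14.7 to 24.6 M (mega) counts, and values are given as CPM, counts per M counts after TMM scaling. Nothing in the labels says that libraries of a group came from separate animals, so p-values measure the spread between these libraries. Cpt1a, the targeted gene, stood at 378 to 556 CPM in fasted control against 86.1 to 126 in fasted LKO, and at 319 to 620 against 39.9 to 75.2 CPM in the refed groups. Hepatocyte markers summed to 72947 CPM or more in every library, and they are the markers of the labelled tissue. Their sum was 72947 to 83881 CPM in fasted LKO and 90705 to 98304 CPM in fasted control. Of the 10 markers 1 was called higher in fasted LKO and 4 lower, against 5.75% and 6.48% of all genes. Of 8 adipocyte markers, the sum was 6.22 to 18.1 CPM in fasted LKO and 19.9 to 89.3 CPM in fasted control, with Lep at 0 in 15 and Adipoq at 0 in 11 of the 16 libraries. The highest values in any library were those of Cfd (58.1 CPM), Cidea (29.7) and Adrb3 (11.2), and no other marker passed 0.849 CPM (Nnat). The sum thus mostly reflects Cfd, Cidea and Adrb3 and is a poor measure of adipocytes. Of the 4 adipocyte markers tested, 2 were called lower in fasted LKO, as were 6.48% of all genes. Lymphocyte markers, 8 genes, summed to 5.94 to 8.96 CPM in refed LKO against 3.26 to 4.28 CPM in refed control. Of the 7 tested, 0 were called in that comparison, where 2.28% of all genes were called higher and 1.35% lower. In such bulk samples fewer cells of a type and less RNA per cell cannot be told apart, and the part of these markers in the results below was not tested.

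Levels between genes were compared as CPM per kilobase, the CPM divided by the gene length in the deposited tables. In fasted control livers Igfbp1 (21.6 ± 4.56 CPM per kilobase) and Akt2 (19.4 ± 0.343) had the highest levels (SD, n = 4, here and below). The mean of Akt2 lay within the spread of Igfbp1. The level of Pik3r1 was 6.93 ± 2.33, that of Foxo3 4.73 ± 0.635 and that of Insr 4.35 ± 0.371 CPM per kilobase. The mean of Foxo3 lay within the spread of Pik3r1, and that of Insr within the spread of Foxo3. Foxo1 (3.19 ± 0.834), Sesn1 (1.71 ± 0.225), Irs2 (1.34 ± 0.466) and Sesn3 (0.873 ± 0.0937 CPM per kilobase) were lower. Irs1 had the lowest level of the 10 at 0.209 ± 0.0564 CPM per kilobase, below Irs2, the other docking protein gene. In fasted LKO livers the level of Irs2 was 3.83 ± 1.78 CPM per kilobase, within the spread of Pik3r1 at 4.0 ± 0.953, and Igfbp1 reached 68.3 ± 46.3 CPM per kilobase.

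**Figure D1:**
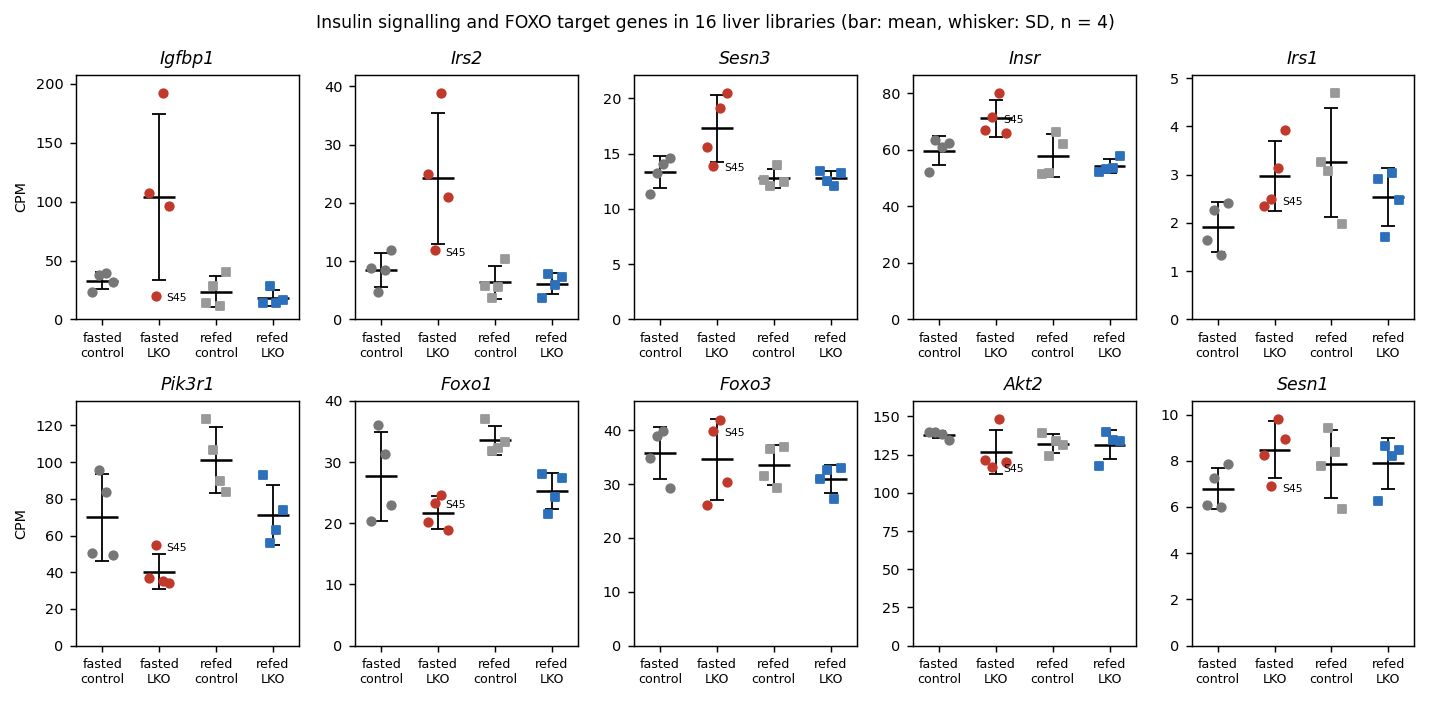
CPM of the 10 genes (vertical axes, linear, from 0) in the 4 groups (horizontal axes). Each point is a library, the bar is the mean and the whisker the SD of 4 libraries; library S45 is marked. For Igfbp1, S45 at 20.2 CPM lies below the other 3 fasted LKO libraries at 96.7 to 193 CPM.

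The comparison of genotypes after the fast asked how the pathway's RNA differs in livers without Cpt1a, whose product lets long-chain fatty acids enter mitochondria. All adjusted p in the text are from edgeR (quasi-likelihood F-test, Benjamini-Hochberg over the 14488 genes tested) unless another tool is named. By this test 3 of the 10 genes were called higher in LKO at an adjusted p under 0.05 and 1 lower. Over all genes tested, 5.75% were called higher and 6.48% lower. The median log2 fold change of the 10 genes was 0.29, against 0.02 for all genes. The count of 4 calls was 1 without S41, S42, S44 or S46, 2 without S43 or S47 and 4 without S45. It was 1 when only the 2 groups compared were fitted and 2 under limma-voom.

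At the receptor, Insr (chromosome 8 from 3172061 to 3329617, minus strand, in the coordinates of the deposited tables, for which the submitters' processing notes name mm39) stood at 52.2, 63.4, 61.0 and 62.3 CPM in fasted control. In fasted LKO it stood at 67.0, 71.6, 80.3 and 65.9 CPM. All 4 LKO libraries lay above all 4 controls, and the log2 fold change of 0.25 (SE 0.10) did not pass (adjusted p = 0.0957). How many of all genes have groups apart in this way was not counted, so the separation is description only.

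The 2 docking proteins differed in level and in size of effect. Irs2 (chromosome 8 from 11034681 to 11058458, minus strand) was at 8.74, 4.73, 8.53 and 11.9 CPM in fasted control. In fasted LKO it was at 25.0, 11.9, 38.9 and 21.0 CPM, so that 3 of the 4 LKO libraries were above every control and S45 was level with the highest control. Irs2 rose by 1.51 on the log2 scale (SE 0.36, adjusted p = 0.0114), and this call held under all alternatives tried (log2 fold change 1.19 to 1.73, adjusted p up to 0.0434). Irs1 (chromosome 1 from 82210822 to 82269137, minus strand) was measured on only 21 to 118 counts a library. Its fasted levels were 1.33 to 2.41 CPM in control and 2.35 to 3.92 CPM in LKO, and the log2 fold change of 0.63 (SE 0.28) did not pass (adjusted p = 0.157).

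Pik3r1 (chromosome 13 from 101817071 to 101904725, minus strand) went the other way. It stood at 50.5, 95.8, 83.8 and 49.4 CPM in fasted control and at 36.8, 54.6, 35.5 and 34.3 CPM in fasted LKO. The controls formed a high and a low pair, and S45 was the LKO library that reached into their range. Pik3r1 fell by 0.79 on the log2 scale (SE 0.22, adjusted p = 0.0297). The call was lost without S41 (adjusted p 0.103), S42 (0.0851), S44 (0.0844), S46 (0.0826) or S47 (0.0685), and with only the 2 groups fitted (0.0641).

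The kinase and the transcription factors changed little in RNA. Akt2 (chromosome 7 from 27290977 to 27340251, plus strand) ranged from 135 to 140 CPM in fasted control and from 117 to 148 CPM in fasted LKO, with a log2 fold change of −0.12 (SE 0.08, adjusted p = 0.369). Foxo1 (chromosome 3 from 52175757 to 52260642, plus strand) stood at 20.5 to 36.0 CPM in control and 19.0 to 24.6 CPM in LKO (−0.35, SE 0.15, adjusted p = 0.151), and it passed without S40 (adjusted p 0.0499). Foxo3 (chromosome 10 from 42057837 to 42152751, minus strand) had overlapping ranges of 29.3 to 39.9 and 26.2 to 41.9 CPM (−0.05, SE 0.14, adjusted p = 0.866).

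Of the members that FOXO factors induce, Igfbp1 (chromosome 11 from 7147782 to 7152546, plus strand) stood at 23.6, 37.4, 39.1 and 31.7 CPM in fasted control and at 107, 20.2, 193 and 96.7 CPM in fasted LKO. Thus 3 LKO libraries were above all controls, and S45 was below all of them. Igfbp1 rose by 1.66 on the log2 scale (SE 0.49, adjusted p = 0.0352). Without S45 the value was 2.0 (adjusted p 0.00239), and the call was lost without S40 (0.0980), S41 (0.0665), S42 (0.0660), S43 (0.0790), S44 (0.0733) or S46 (0.135). It was also lost under limma-voom (0.111), with robust fitting (0.0743) and with only the 2 groups fitted (0.0675).

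The sestrins are stress-induced regulators that restrain the growth kinase complex mTORC1. Sesn3 (chromosome 9 from 14186363 to 14244397, plus strand) stood at 11.4, 13.2, 14.1 and 14.6 CPM in fasted control and at 15.6, 13.9, 19.1 and 20.5 CPM in fasted LKO. Again S45 was the LKO library within the control range. Sesn3 rose by 0.37 on the log2 scale (SE 0.12, adjusted p = 0.0471), a call close to the threshold that was kept in 1 of the 16 fits that left out a library, the fit without S45 (0.0125). The call was also lost with no filter on low counts (0.0918), under limma-voom (0.0542) and with only the 2 groups fitted (0.121). Among the fits without a library its adjusted p was highest without S40 (0.142), S47 (0.133) and S46 (0.131), and 0.0501 to 0.0931 without any of the other libraries. Sesn1 (chromosome 10 from 41685931 to 41784420, plus strand) ranged from 6.00 to 7.84 CPM in control and from 6.90 to 9.81 CPM in LKO (0.32, SE 0.16, adjusted p = 0.208).

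In the authors' deposited table of this comparison, Irs2 (log2 fold change 1.51, adjusted p-value 2.1e-04) and Pik3r1 (−0.80, 0.0115) were the members under 0.05. Igfbp1 and Sesn3 were not.

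The promoters of Igfbp1, Irs2 and Irs1 are shown because these are the members whose 300 bases around the start site hold the core of the insulin response element, the kind of sequence through which FOXO factors act on IGFBP1. Sequences are from RefSeq on GRCm38.p6, a build other than that of the counts, and run 5′ to 3′ on the gene's strand from 250 bases before the transcription start to 50 bases from it. Igfbp1 lies at chr11:7197537-7197836 (plus strand), Irs2 at chr8:11008880-11009179 (minus strand) and Irs1 at chr1:82291390-82291689 (minus strand). Capitals mark CAAAACA or its reverse complement TGTTTTG.
Igfbp1: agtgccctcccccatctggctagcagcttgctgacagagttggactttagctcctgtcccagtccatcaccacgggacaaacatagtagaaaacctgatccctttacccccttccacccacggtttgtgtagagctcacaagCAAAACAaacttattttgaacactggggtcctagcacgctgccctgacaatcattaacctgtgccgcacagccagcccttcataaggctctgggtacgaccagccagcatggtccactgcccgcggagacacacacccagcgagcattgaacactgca
Irs2: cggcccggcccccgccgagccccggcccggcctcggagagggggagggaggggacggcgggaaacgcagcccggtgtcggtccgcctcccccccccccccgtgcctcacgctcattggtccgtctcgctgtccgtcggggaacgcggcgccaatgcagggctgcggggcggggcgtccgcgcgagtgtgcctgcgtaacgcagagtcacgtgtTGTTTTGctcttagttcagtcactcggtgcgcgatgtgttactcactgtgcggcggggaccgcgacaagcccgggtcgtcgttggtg
Irs1: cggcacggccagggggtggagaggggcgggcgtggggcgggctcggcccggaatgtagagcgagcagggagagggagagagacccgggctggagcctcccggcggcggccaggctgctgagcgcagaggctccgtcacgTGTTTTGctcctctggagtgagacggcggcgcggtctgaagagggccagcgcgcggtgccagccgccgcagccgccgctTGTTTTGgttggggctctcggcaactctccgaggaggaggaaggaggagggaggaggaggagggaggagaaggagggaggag

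The match began 108 bases before the start in Igfbp1, 37 bases before it in Irs2, and 111 and 32 bases before it in Irs1. RefSeq promoters were found for 9 of the 10 genes, 14 in all since some genes have several, and 3 of these held this core on either strand. The share among all 32851 RefSeq promoters was 6.28%. The forkhead core GTAAACA (reverse complement TGTTTAC) was in 1 of the 14, a promoter of Sesn1, and in 3.65% of all promoters. The 2 motifs share no position in these windows, a match is no evidence of binding, and Irs1 holds the core without having passed the fasted test.

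**Figure D2:**
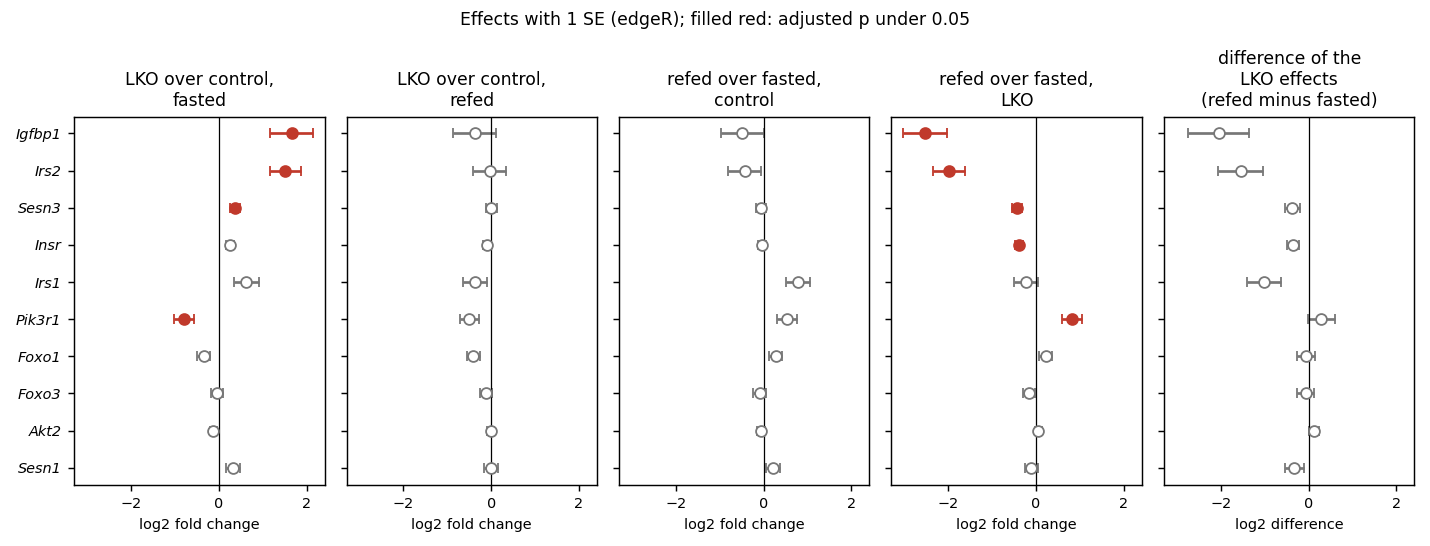
Log2 fold changes of the 10 genes in the 4 group comparisons and, at the right, the difference between the LKO effects of the 2 states; whiskers are 1 SE. Filled red points have an adjusted p under 0.05: 4 genes for fasted LKO against control and 5 for refed against fasted LKO.

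After refeeding, the same question of genotype gave no call among the 10 genes by edgeR, and none by DESeq2 or limma-voom. Over all genes 2.28% were called higher and 1.35% lower. At an unadjusted p under 0.05 there were 2 genes, Foxo1 and Pik3r1, both lower in LKO. Igfbp1 stood at 14.2, 28.4, 11.7 and 40.3 CPM in refed control and at 13.9, 28, 14.0 and 16.5 CPM in refed LKO. Irs2 stood at 5.75, 3.66, 5.57 and 10.4 CPM in refed control and at 3.74, 7.78, 5.87 and 7.23 CPM in refed LKO. The groups overlapped for both genes, with log2 fold changes of −0.38 (SE 0.50, adjusted p = 0.743) for Igfbp1 and −0.03 (SE 0.37, adjusted p = 0.980) for Irs2. These SE leave room for a sizeable difference in either direction.

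Foxo1 stood at 37.1, 31.8, 32.2 and 33.3 CPM in refed control and at 28, 21.6, 24.3 and 27.4 CPM in refed LKO. Every LKO library was below every control, and the log2 fold change of −0.41 (SE 0.15) did not pass (adjusted p = 0.149). Here too the share of all genes with groups apart was not counted. The authors' deposited table gives Foxo1 −0.40 with an adjusted p-value of 0.0161. Pik3r1 was at 84.0 to 124 CPM in refed control and 55.8 to 93.0 CPM in refed LKO (−0.50, SE 0.22, adjusted p = 0.236). The other 6 genes had log2 fold changes from −0.37 (Irs1) to 0.01 (Sesn3).

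Refeeding was then followed within each genotype. In control livers edgeR called none of the 10 genes, while 7.79% of all genes were called higher and 7.65% lower in refed livers. Irs1 and Pik3r1 were under an unadjusted p of 0.05, and limma-voom called none. Igfbp1 (log2 fold change −0.49, SE 0.49, adjusted p = 0.543) and Irs2 (−0.43, SE 0.37, adjusted p = 0.464) overlapped between fasted and refed control. Irs1 went from 1.91 ± 0.515 to 3.25 ± 1.12 CPM (SD, n = 4; 0.78, SE 0.28, adjusted p = 0.0653), and passed with DESeq2 (0.0422) and without S51 (0.0236). Pik3r1 went from 69.9 ± 23.5 to 101 ± 17.9 CPM (SD, n = 4; 0.53, SE 0.22, adjusted p = 0.116), and passed without S41 (0.0444).

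In LKO livers refeeding lowered 4 of the 10 genes and raised 1. Over all genes 8.78% were called lower and 9.28% higher. Igfbp1 fell by 2.53 on the log2 scale (SE 0.51, adjusted p = 0.00272), from 104 ± 70.6 to 18.1 ± 6.70 CPM (SD, n = 4), 5.75-fold on the means. Only S45, at 20.2 CPM, lay within the refed range of 13.9 to 28 CPM. Irs2 fell by 1.98 (SE 0.36, adjusted p = 0.00142), from 24.2 ± 11.2 to 6.16 ± 1.80 CPM (SD, n = 4), and its lowest fasted library (11.9 CPM) was above its highest refed library (7.78 CPM). Insr fell by 0.39 (SE 0.10, adjusted p = 0.00913), from 65.9 to 80.3 CPM down to 52.2, 53.2, 53.6 and 57.8 CPM, again without overlap. The calls of Igfbp1, Irs2 and Insr held under all alternatives tried, with adjusted p of at most 0.0123, 0.00674 and 0.0327.

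Pik3r1 rose in refed LKO by 0.82 (SE 0.22, adjusted p = 0.0177), from 34.3 to 54.6 CPM up to 93.0, 55.8, 62.8 and 73.9 CPM, and lost the call without S52 (0.0680). Sesn3 fell by 0.43 (SE 0.12, adjusted p = 0.0180) to 13.5, 12.5, 12.1 and 13.3 CPM, and lost the call without S46 (0.0548) or S47 (0.0608). For each of these genes the fasted LKO libraries are the same ones that enter the fasted comparison of genotypes, so the 2 results are not independent. The authors' deposited table lists the same 5 genes under 0.05 for this comparison, with log2 fold changes of −2.52 for Igfbp1, −1.97 for Irs2, −0.39 for Insr, 0.83 for Pik3r1 and −0.42 for Sesn3.

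A call in 1 state or genotype does not show a difference between them, so the difference of the LKO effects was tested as an interaction. None of the 10 genes passed by edgeR, DESeq2 or limma-voom, where 0.311% of all genes were called with a more positive effect after refeeding and 0.228% with a more negative one. At an unadjusted p under 0.05 there were 5: Igfbp1 (−2.04, SE 0.69, adjusted p = 0.155), Irs2 (−1.54, SE 0.51, adjusted p = 0.149), Irs1 (−1.01, SE 0.39, adjusted p = 0.199), Sesn3 (−0.37, SE 0.17, adjusted p = 0.278) and Insr (−0.35, SE 0.14, adjusted p = 0.20). Without S45 Igfbp1 passed (−2.37, adjusted p 0.0397).

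The genes whose pattern over the 16 libraries lay nearest to those of Igfbp1 and Irs2 were found by the root mean square distance of centred log2 CPM, among 8893 protein-coding genes with a mean of at least 5 CPM. Nearest to Igfbp1 was Acacb (distance 0.58), which encodes an acetyl-CoA carboxylase whose product malonyl-CoA inhibits CPT1, then Irs2 itself (0.62) and Enc1 (0.70), where the median distance over all genes was 1.15. The mean of Acacb was 25.8 CPM in fasted control and 49.8 CPM in fasted LKO, and after refeeding 17.6 CPM (control) and 17.9 CPM (LKO). Nearest to Irs2 were Nceh1 (0.43), a cholesteryl ester hydrolase, Il1rn (0.46), the interleukin-1 receptor antagonist, and Enc1 (0.46), with a median distance of 0.95. In fasted LKO Nceh1 was at 91.7, 45.5, 84.7 and 54.9 CPM against 26.7 to 29.5 CPM in fasted control. All of these genes were picked for their closeness to Igfbp1 or Irs2 over these same libraries. The rises of Acacb and Nceh1 in fasted LKO, and the low value of Nceh1 in S45, thus follow from that choice.

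Other genes of the pathway were examined as 6 lists, 103 genes tested in all. In fasted LKO 11 were called higher (10.7%, against 5.75% of all genes) and 8 lower (7.77%, against 6.48%). In refed LKO 1 was called higher (0.971%, against 2.28%) and 2 lower (1.94%, against 1.35%). On refeeding in control 11 were called higher and 11 lower (10.7% each, against 7.79% and 7.65%). On refeeding in LKO 11 were called higher (10.7%, against 9.28%) and 22 lower (21.4%, against 8.78%). The interaction called 1 with a more positive and 1 with a more negative effect after refeeding (0.971% each, against 0.311% and 0.228%).

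Further FOXO targets held 27 tested genes. In fasted LKO 5 were called, all higher: Pdk4, Gadd45b, Bcl2l11, Mttp and Ccng2, and the list's median log2 fold change was 0.11 (all genes 0.02). Among all genes 5.75% were called higher and 6.48% lower. Gadd45b, a stress-response gene, was at 3.03, 7.24, 1.45 and 3.64 CPM in fasted control and at 17.5, 4.47, 17.1 and 12.1 CPM in fasted LKO (1.73, SE 0.41, adjusted p = 0.0122; 0.0535 with only the 2 groups fitted). Pdk4, the kinase that switches off pyruvate dehydrogenase, was at 34.1, 6.28, 13.5 and 50 CPM in fasted LKO against 2.97 to 8.22 CPM in control (2.38, SE 0.49, adjusted p = 0.00521). In both genes S45 was the lowest LKO library and within the control range. The gluconeogenic targets, named here after their values were seen, did not pass: Pck1 had a log2 fold change of 0.78 (SE 0.28, adjusted p = 0.0836), G6pc of 0.23 (SE 0.34, adjusted p = 0.720) and Ppargc1a of −0.37 (SE 0.28, adjusted p = 0.434).

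On refeeding in LKO, 11 of the 27 FOXO targets were called lower and 0 higher (median −0.31, all genes −0.02), against 8.78% and 9.28% of all genes, and 6 of the 27 had a positive log2 fold change. Among those that fell were Pdk4 (−2.76, SE 0.50, adjusted p = 0.00134) and Gadd45b (−1.72, SE 0.41, adjusted p = 0.00818). In control livers 5 were called lower and 2 higher (median −0.14, all genes 0.01), against 7.65% and 7.79% of all genes. The interaction called 1 gene of the list, Ccng2, with a more negative effect after refeeding, as it did 0.228% of all genes. On refeeding in control, Pnpla2, the triglyceride lipase of lipid droplets, fell by 1.21 (SE 0.20, adjusted p = 0.00148). Also in control, G6pc, the last step of glucose release, rose by 1.49 (SE 0.35, adjusted p = 0.0102). It went from 83.9, 154, 172 and 252 CPM in fasted control to 417, 549, 354 and 539 CPM in refed control, without overlap.

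Ccng2, a cyclin that restrains the cell cycle and a known FOXO target, was called in opposite directions in the 2 states. It was at 7.84 to 9.02 CPM in fasted control and 11.5 to 17.9 CPM in fasted LKO (0.69, SE 0.17, adjusted p = 0.0129). In the refed groups it was at 7.06 to 10.3 CPM in control and 4.03 to 6.37 CPM in LKO (−0.75, SE 0.17, adjusted p = 0.0261). The interaction passed (−1.44, SE 0.24, adjusted p = 0.0194), though not without S48 (0.0543).

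**Figure D3:**
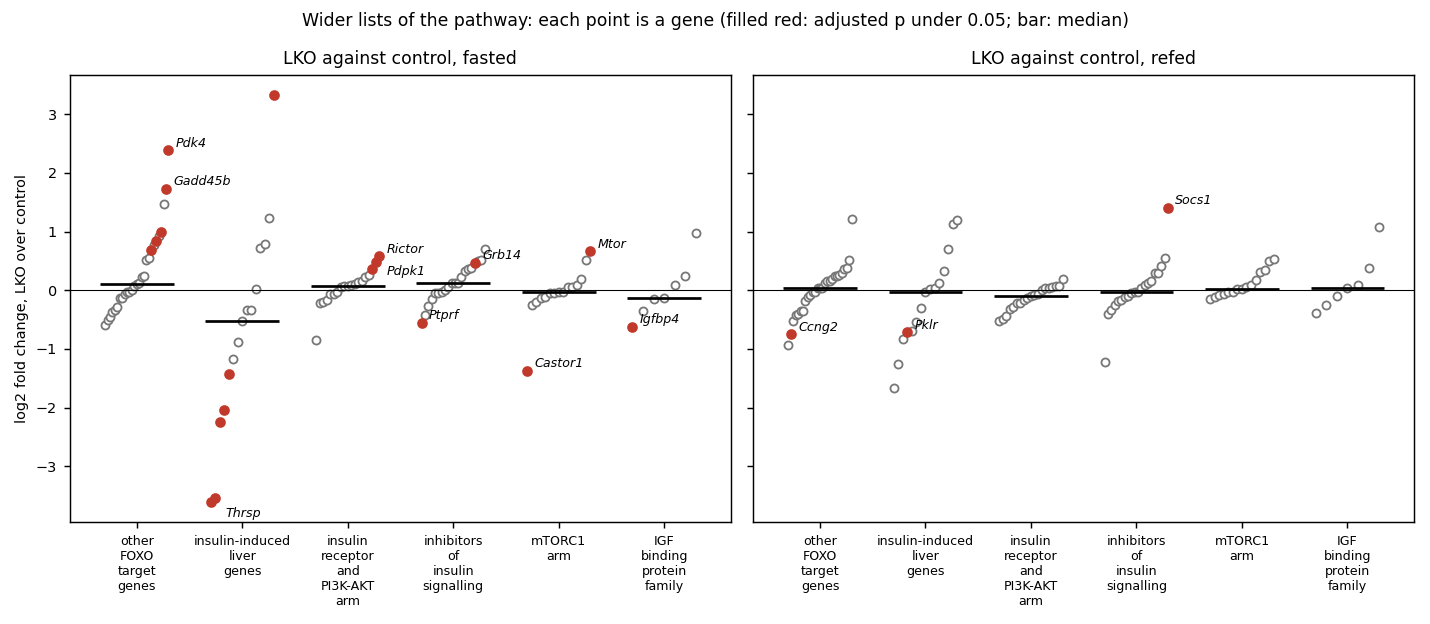
Log2 fold change of LKO over control (vertical axis) for the tested genes of the 6 lists (horizontal axis), in the fasted state at the left and the refed state at the right. Each point is a gene, bars are list medians, filled red points have an adjusted p under 0.05; 19 genes were called when fasted and 3 when refed.

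A list of genes taken to be induced by insulin in liver held 15 tested genes. Of these, 5 were called lower in fasted LKO, 1 was called higher and 9 did not pass (median −0.52, all genes 0.02). A positive log2 fold change was seen in 5 of the 15. Among all genes 6.48% were called lower and 5.75% higher. Thrsp, a lipogenic gene, was at 90.3, 179, 224 and 109 CPM in fasted control and at 7.19, 21.7, 7.79 and 12.6 CPM in fasted LKO, without overlap, and S45 was the highest LKO library. Its log2 fold change was −3.61 (SE 0.55, adjusted p = 7.5e-04). The gene called higher was Ppp1r3g, a glycogen-targeting subunit of protein phosphatase 1, at 10.7, 0.509, 30.6 and 1.62 CPM in fasted LKO against 0.506 to 2.04 CPM in control (3.33, SE 0.95, adjusted p = 0.0308). Its RNA fell on refeeding in LKO (below), so these values do not bear out its place on this list. Ppp1r3b, which encodes another such subunit, fell by 2.04 (SE 0.36, adjusted p = 0.00190).

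Of these 15 genes 8 were called higher in refed than in fasted LKO livers and 1, Ppp1r3g, lower (median 1.36, all genes −0.02), against 9.28% and 8.78% of all genes. In control 7 were called higher and 0 lower (median 0.43, all genes 0.01), against 7.79% and 7.65% of all genes. The interaction called 0 of the 15, against 0.311% of all genes with a more positive and 0.228% with a more negative effect. Thrsp rose by 3.70 in LKO (SE 0.55, adjusted p = 3.1e-04) and by 1.76 in control (SE 0.50, adjusted p = 0.0254), the latter lost without S40 (0.0850), S43 (0.0737) or S49 (0.113), with robust fitting (0.0549) and with only the 2 groups fitted (0.0536). Ppp1r3g had −5.28 in LKO (SE 1.14, adjusted p = 0.00435; 0.151 under limma-voom). Its refed LKO libraries were near the floor at 0.102, 0.392, 0.433 and 0.217 CPM. Of its fasted LKO libraries, S45 and S47 lay within the fasted control range, so the size of this fall is poorly fixed. Ppp1r3b rose by 1.52 in control (SE 0.35, adjusted p = 0.00871). Between refed LKO and refed control the 1 call of this list was Pklr, the liver pyruvate kinase (−0.72, SE 0.19, adjusted p = 0.0440), where 1.35% of all genes were called lower. The Pklr call was lost under limma-voom (0.0504), with only the 2 groups fitted (0.0768) and in 10 of the 16 fits that left out a library (highest 0.110, without S49).

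**Figure D4:**
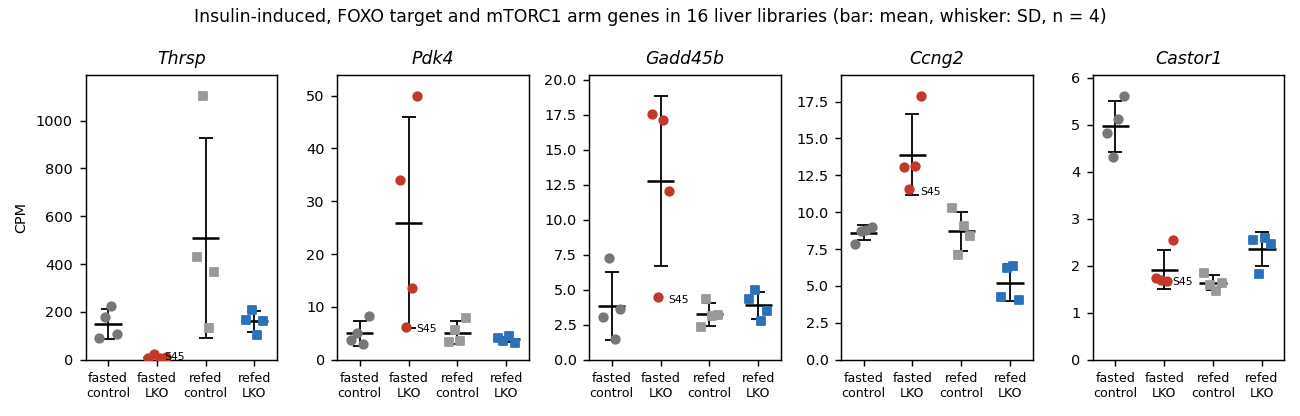
CPM (vertical axes, linear, from 0) of 5 genes of the wider lists in the 4 groups. Points are libraries, bars means and whiskers SD of 4; S45 is marked. Thrsp in fasted LKO (7.19 to 21.7 CPM) lies below all other groups, and Ccng2 is high in fasted LKO and low in refed LKO.

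In the arm from receptor to AKT, 19 genes were tested and 3 were called in fasted LKO, all higher (median 0.08, all genes 0.02). Among all genes 5.75% were called higher and 6.48% lower. Rictor, the defining subunit of the complex that phosphorylates AKT, rose by 0.58 (SE 0.13, adjusted p = 0.00797), and Pdpk1, the other kinase acting on AKT, by 0.48 (SE 0.11, adjusted p = 0.0130). Pdpk1 was at 24.7, 18.6, 25.5 and 22.2 CPM in fasted LKO and at 16.0 to 17.0 CPM in fasted control. On refeeding 3 were called lower in LKO, as were 8.78% of all genes. Among the 3 were Pik3ca, a catalytic subunit of phosphatidylinositol 3-kinase (−0.43, SE 0.10, adjusted p = 0.00731), and Rictor (−0.45, SE 0.13, adjusted p = 0.0207; 0.0651 without S46, 0.0634 without S53, 0.0506 with no filter). In control livers Pik3r2, the second regulatory subunit gene, fell by 0.50 (SE 0.10, adjusted p = 0.00319) and Pik3cb, a catalytic subunit gene, rose by 0.46 (SE 0.14, adjusted p = 0.0374).

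Of 20 genes that inhibit insulin signalling, 1 was called higher in fasted LKO, Grb14 (0.47, SE 0.13, adjusted p = 0.0240), an adaptor that binds the receptor, and 1 lower, the receptor phosphatase Ptprf (−0.55, SE 0.10, adjusted p = 0.00232). The shares of all genes were 5.75% and 6.48%, and the list's median was 0.12 (all genes 0.02). In refed LKO Socs1, a suppressor of cytokine signalling, was higher at 1.38, 1.31, 1.11 and 0.780 CPM against 0.319 to 0.584 CPM in refed control (1.4, SE 0.30, adjusted p = 0.0179; 0.0646 without S48). Trib3, a pseudokinase that binds AKT, fell on refeeding in both genotypes, with log2 fold changes of −2.29 in control (SE 0.39, adjusted p = 0.00153) and −2.43 in LKO (SE 0.38, adjusted p = 4.3e-04). Socs1 fell in control (−1.51, SE 0.30, adjusted p = 0.00408), and Socs3, its relative, in both control (−1.17, SE 0.28, adjusted p = 0.0115) and LKO (−1.0, SE 0.29, adjusted p = 0.0224). The Socs3 call in LKO was lost without S44 (0.0561), S47 (0.0567), S52 (0.0549) or S54 (0.0508).

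Of 15 genes of the mTORC1 arm, the growth branch below AKT, 1 was called higher and 1 lower in fasted LKO. The shares of all genes were 5.75% and 6.48%, and the list's median was −0.03 (all genes 0.02). The 2 genes were Mtor, higher (0.66, SE 0.16, adjusted p = 0.0112), and Castor1, an arginine sensor, lower (−1.37, SE 0.18, adjusted p = 2.75e-04). Castor1 was at 4.82, 4.32, 5.12 and 5.62 CPM in fasted control, at 1.75, 1.70, 1.68 and 2.55 CPM in fasted LKO, at 1.47 to 1.85 CPM in refed control and at 1.83 to 2.60 CPM in refed LKO. Fasted control thus stood above the other 3 groups. The interaction of Castor1 passed (1.91, SE 0.25, adjusted p = 0.0122), where 0.311% of all genes were called with a more positive effect after refeeding. Its change on refeeding in control also passed (−1.60, SE 0.18, adjusted p = 1.6e-04). Eif4ebp1, a repressor of translation that mTORC1 inactivates, also fell on refeeding in control (−0.83, SE 0.15, adjusted p = 0.00284). In LKO refeeding lowered Mtor (−0.59, SE 0.15, adjusted p = 0.0150; 0.0569 without S44, 0.0541 without S52) and Sesn2, the third sestrin gene (−0.54, SE 0.17, adjusted p = 0.0394; lost in 6 of the 16 fits that left out a library).

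Of the 7 other genes for insulin-like growth factor binding proteins and their partner, 1, Igfbp4, was called lower in fasted LKO, against 6.48% of all genes. It was at 4083, 3793, 3810 and 3479 CPM in fasted control and at 2166, 2688, 2710 and 2245 CPM in fasted LKO, without overlap (−0.63, SE 0.09, adjusted p = 7.5e-04), opposite in direction to Igfbp1. On refeeding in LKO it rose by 0.30 (SE 0.09, adjusted p = 0.0343), a call lost with only the 2 groups fitted (0.107) and in 5 of the 16 fits that left out a library.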

How the data were processed

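RNA of 16 liver libraries was sequenced; mRNA was captured on poly-T beads and libraries were made with random hexamers and dUTP, per the labels' protocols. The submitters' processing notes name HISAT2 2.0.5 and mm39; the counting tool, its use of strand and the annotation are not given in the sources used here. Counts per gene, unnormalized, come from the 4 deposited tables, each with 8 libraries. The log2 fold changes and adjusted p-values quoted as the authors' are those of the deposited tables, with the sign set so that LKO or refed comes first. The authors' own normalized values and FPKM, 64 columns, were left aside.

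Columns S40 to S55 were placed in groups by the group heading shared by the 2 tables that hold each library; they carry no replicate number. The tables were joined on gene identifier, 0 counts differed between them, and a gene left out of both tables of a library was set to 0 there (3148 genes). Genes passing filterByExpr (14488) were scaled by TMM (factors 0.941 to 1.07) and fitted in R 4.3.3 with edgeR 4.0.16 (glmQLFit, 4 groups, glmQLFTest), with calls at a Benjamini-Hochberg adjusted p under 0.05 over all genes. The SE is the log2 fold change divided by the square root of F. Alternatives were RLE and upper quartile scaling, no filter, a mean of 5 CPM, DESeq2 1.42.0, limma-voom (limma 3.58.1), robust fitting, only the groups compared, and leaving out each library.

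The members and lists were chosen with earlier results of these data known. List genes named singly are, per list and comparison, the 2 called genes with the largest change. Outside that rule, chosen after their values were seen, are Bcl2l11, Mttp, Pck1, Ppargc1a, and Ccng2, G6pc, Socs3, Ppp1r3b and Ppp1r3g in comparisons where they were not among these 2. One gene that meets the rule is not reported here. Overlapping genes are few: the antisense gene over Irs2 holds 29 counts in all against 3234 for Irs2. Precision is limited by depth for Irs1 and by 4 libraries a group for all.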

Additional observations from a re-analysis of the deposited data

Results flagged for a closer look

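In 36 genes and 4 groups, 144 sets of 4 libraries were examined for a library far from the other three, and 7 were found, where chance alone gives about 1 in 20 sets. In fasted LKO, S45 was far above the others for Pik3r1 (54.6 CPM), S46 for Akt2 (148 CPM) and S47 for Castor1 (2.55 CPM). In refed LKO, S53 was far from the others for Castor1 (1.83 CPM, low) and Grb14 (72.7 CPM, high), and S52 for Pklr (125 CPM, low). In refed control, S49 was far above the others for Pklr (367 CPM).

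The effect of LKO differed between the feeding states by a test of the difference for 2 of the 103 tested genes of the wider lists. They were Castor1 (1.91 on the log2 scale) and Ccng2 (−1.44), with the edgeR adjusted p given above. The test called 0.311% of all genes with a more positive and 0.228% with a more negative effect after refeeding.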

How the results depend on the processing

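No paired analysis was possible because the columns of the deposited tables carry no replicate numbers. Of 1185 refits of the 10 genes, 1144 kept the direction and the side of the threshold or stayed uncalled, 36 lost a call, 5 gained one and 0 of the called values changed sign. The 4 calls in fasted LKO became 2 under limma-voom and 1 with only the groups compared, and 1 to 4 when a library was left out. The 5 calls on refeeding in LKO stayed at 4 or 5. DESeq2 called 1 gene on refeeding in control, and leaving out a library gave 0 to 1 there and 0 to 1 for the interaction (1 without S45). Of the wider lists, the 3 calls in refed LKO became 1 with only the groups compared and 0 to 3 with a library left out (0 without S48, 1 without S55). Their 2 interaction calls became 5 at a mean of 5 CPM, 7 with DESeq2 and 1 to 7 with a library left out (1 without S48, 5 without S45, 7 without S49). The causes were not tested. Cpt1a kept its call throughout (−2.40 to −2.21 fasted, −3.27 to −2.89 refed).

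Of list genes named above, Grb14 lost its fasted call without S40 (0.0581), S43 (0.0728), S44 (0.0764) or S46 (0.0841) and with only the 2 groups fitted (0.0844). Ccng2 lost its refed call without S48 (0.0872), S50 (0.0618), S52 (0.0636) or S55 (0.0890) and with only the 2 groups (0.0659). Pik3cb lost its call without S40 (0.127), S41 (0.0596), S42 (0.0638), S48 (0.0902), S49 (0.0508) or S50 (0.109) and with no filter (0.0619).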
